A study of Mus musculus with 8 samples.

Results

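The ubiquitin-specific proteases are the largest family of deubiquitinases. The members were the rows of the deposited table whose symbol is Usp followed by a number and at most 1 letter, with Usp18, a protease of the ubiquitin-like protein ISG15, left out. This gave 47 of 26848 genes. They were measured by RNA sequencing in the mouse macrophage-like line RAW264.7 grown on PEEK (polyetheretherketone), a plastic of orthopaedic implants. The surface was smooth in 4 libraries and structured at the nanometre and micrometre scale in 4 libraries, and no genetic change or added agent is named for either group. The labels number biological replicates without naming separate cultures or days, so p-values measure the spread between these libraries, which may be technical.

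Ubiquitin is a small protein that is joined to other proteins, singly or in chains, and that marks them for degradation by the proteasome or alters where they go and what they bind. Ubiquitin-specific proteases are cysteine proteases that cut ubiquitin from such substrates or take chains apart. In macrophages they act on signalling proteins of inflammation, on receptors that pass through endosomes, on histones and on the cell cycle. Transcript levels do not measure protease activity.

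Library totals ran from 64479829 to 73098735 count units. Multiples of 4 made up 32.1% of the values from 1 to 40, against 25.3% in a range of much higher counts. Most low values were thus not multiples of 4, and Usp29 had counts of 2 units in smooth 3 and smooth 4. That 12 units stand for 3 fragments is an assumption, which these values do not establish. Of 11 macrophage markers, Cd68, Csf1r, Lyz2, Spi1, Tyrobp and Cd14 were above 100 FPKM (fragments scaled to gene length and library depth) in every library. Itgam and Ptprc lay between 9.36 and 26.8 FPKM, Adgre1 between 2.85 and 4.05 FPKM and Fcgr3 between 1.23 and 1.89 FPKM. Mertk was at or under 0.0558 FPKM. Markers of other cells were unevenly spread. The summed level of 15 skeletal muscle markers was 10.4 to 30.8 FPKM on smooth and 9.7 to 12.3 FPKM on structured PEEK, with up to 8 of the 15 at 0 in a structured library. Tnni2 made up 8 to 9.15 FPKM of the structured sums and had a log2 fold change of 0.10. The median over 14 tested markers was -2.69, and edgeR called 3 of them lower (Ckm, Tnnc2 and Atp2a1), against 2.75% of all tested genes. The summed level of 16 hepatocyte markers was 45.6 to 207 FPKM on smooth and 73.5 to 271 FPKM on structured PEEK, highest in structured 4, smooth 1 and structured 3. Their median log2 fold change was 0.71, with 15 positive. By edgeR 0 of the 16 were called, and 3 were higher at an unadjusted p under 0.05 (8.14% of all tested genes). For the 14 measured neutrophil markers the summed level was 16.4 to 18.7 FPKM on smooth PEEK, 24.3 FPKM in structured 1 and 68.2 to 77.7 FPKM in structured 2 to 4. The smooth sums were mostly Mmp9, at 14.4 to 16.8 FPKM, with 9 to 10 of the 14 markers at 0 in each smooth library and 0 to 4 in each structured one. Of 8 tested, edgeR called 6 higher (S100a8, S100a9, Ngp, Mmp8, Chil3 and Lcn2), against 1.01% of all tested genes. Another 1 of the 8 was lower at an unadjusted p under 0.05. The part of these cell markers in the results on Usp genes was not tested beyond the values given below.

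Most of the family was transcribed in these cells. Of the 47 members, 38 had a mean level of at least 1 FPKM and 14 of at least 10 FPKM, and the same number, 38, reached 1 FPKM in every library. The highest was Usp1 at 50.4 FPKM, a protease that removes ubiquitin from PCNA and FANCD2 in DNA repair. Usp5, which takes apart unanchored ubiquitin chains, stood at 41.4 FPKM and Usp39, a splicing factor that has lost protease activity, at 41.1 FPKM. Usp8, which acts on receptors at endosomes, followed at 29.1 FPKM, and Usp14, which is bound to the proteasome, at 28.6 FPKM. These 5 genes made up 40.4% to 41.8% of the family's summed FPKM on smooth PEEK and 42.1% to 44% on structured PEEK, so the shares of the groups did not overlap. The 5 did not move together. Usp1 had means of 47.8 FPKM on smooth and 53 FPKM on structured PEEK, and Usp5 had 42.3 and 40.5 FPKM. The groups overlapped for Usp39, Usp8 and Usp14. No background was computed for such a share. The family's summed level overlapped between the surfaces. It was 454 ± 4.31 FPKM on smooth and 453 ± 5.52 FPKM on structured PEEK (SD, n = 4 per group).

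**Figure D1:**
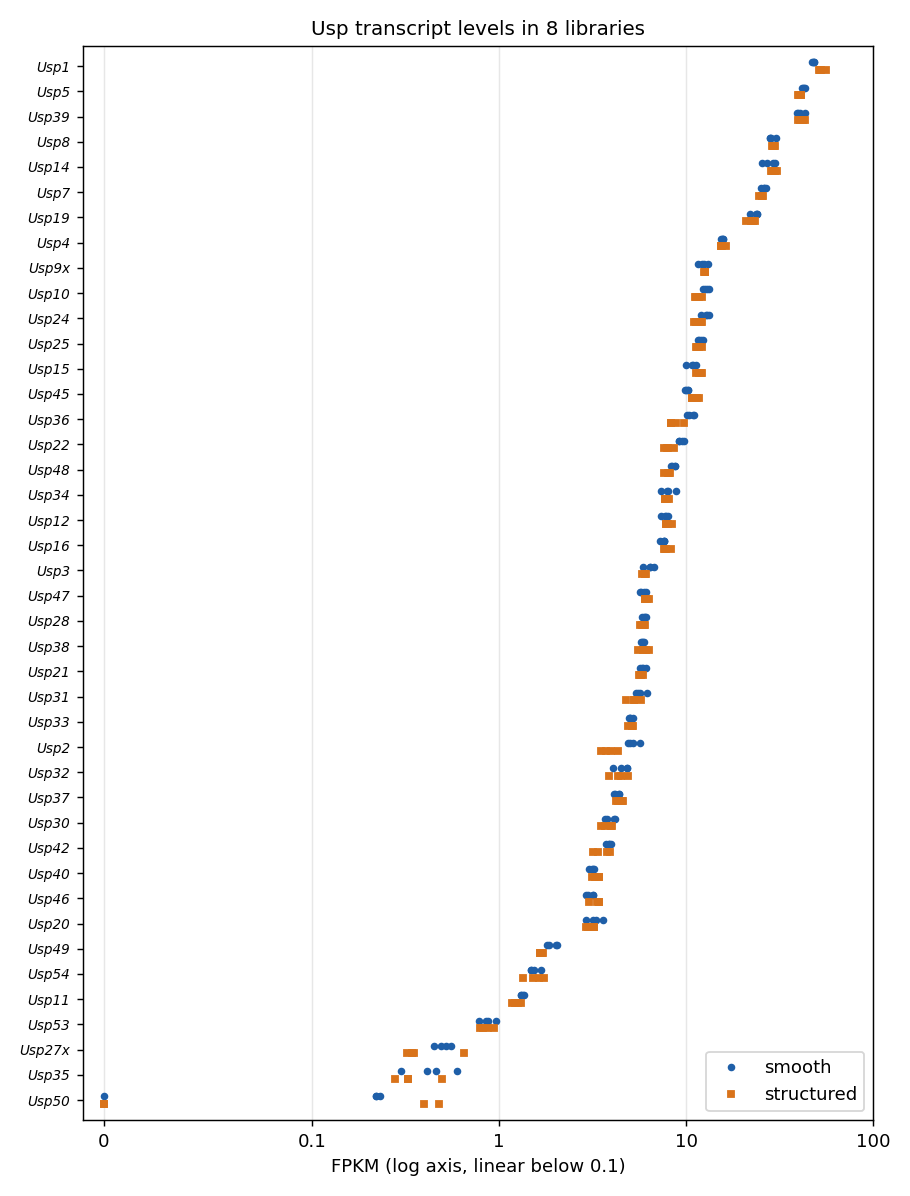
FPKM of the 42 Usp genes with a mean of at least 0.1 FPKM, ordered by mean level. Each point is 1 library, 4 on smooth PEEK (circles) and 4 on structured PEEK (squares), on a log axis that is linear below 0.1. Levels span from 50.4 FPKM for Usp1 to 0.194 FPKM for Usp50, and for most genes the points of both surfaces lie on top of each other.

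At the other end were 9 members under 1 FPKM. Usp53 was at 0.865, Usp27x at 0.462, Usp35 at 0.4 and Usp50 at 0.194 FPKM. Usp13, the paralog of the abundant Usp5, was at 0.0176 FPKM and between 0 and 0.311 CPM (counts scaled to library depth) in the 8 libraries. Usp29, Usp43, Usp44 and Usp51 were too low to test. None of these 4 exceeded 0.124 CPM in any library, below the 0.164 to 0.186 CPM that 12 units represent. Their transcription was thus under the limit assumed here. Such limits cover counting error alone.

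The comparison of the surfaces asks which of these genes differ in level between smooth and structured PEEK. After the filter on low counts 43 members were tested, and 4 of them, Usp2, Usp36, Usp22 and Usp10, fell on structured PEEK, while none rose. Among all 16006 tested genes 2.75% fell and 1.01% rose, 3.75% in all (edgeR quasi-likelihood test, Benjamini-Hochberg adjusted p under 0.05). Before adjustment 3 members were higher and 7 lower at p under 0.05, where the shares over all tested genes were 8.14% and 10.6%. DESeq2 gave an adjusted p to 39 members and called 3 higher and 5 lower, where it called 4.84% higher and 7.63% lower of the 10708 genes with an adjusted p. The changes were small. Of the 38 members at 1 FPKM or more, 25 had a log2 fold change within 0.1 of 0, and the values ran from -0.42 to 0.15. The median over the 43 tested members was -0.04, with 17 positive and 26 negative, against 0.01 over all tested genes, with 8192 positive and 7814 negative. The fall of Usp2 was known when the family was chosen.

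**Figure D2:**
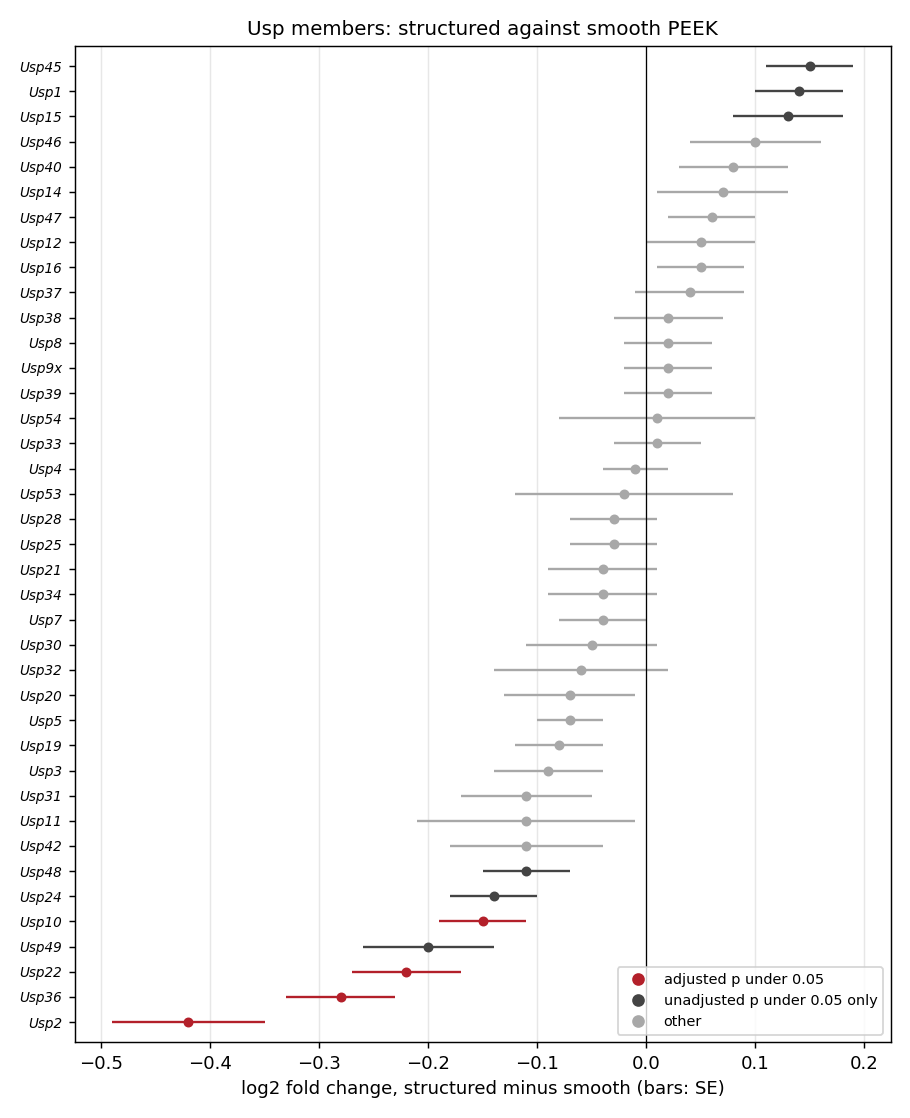
Log2 fold change, structured minus smooth, with its SE for the 39 tested Usp genes with a mean of at least 0.5 FPKM, 4 libraries per surface. Usp2, Usp36, Usp22 and Usp10 (adjusted p under 0.05) lie at -0.42, -0.28, -0.22 and -0.15, and Usp45 is highest at 0.15.

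Usp2 had the largest fall among members at 1 FPKM or more. It encodes a deubiquitinase of cyclin D1, MDM2 and fatty acid synthase, and it is an output gene of the circadian clock in many tissues. Its level was 28.6, 27.1, 26.1 and 25.6 CPM in smooth 1 to 4 and 20.4, 18.3, 22.3 and 19.3 CPM in structured 1 to 4. Every structured library lay below every smooth one. The mean was 26.8 ± 1.32 CPM on smooth and 20.1 ± 1.69 CPM on structured PEEK (SD over 4 libraries each), which is 25.2% less. On the log2 scale the change was -0.42 ± 0.07 (SE), with an adjusted p of 0.0125 in edgeR's test. In such bulk samples fewer cells of a type and less RNA per cell cannot be told apart. Without structured 4 the value was -0.40 and the call was lost (adjusted p = 0.0516, within 3.8e-05 to 0.0516 over 19 alternatives). Structured 1, with the lowest neutrophil marker level of its group, lay within the range of the other 3 structured libraries. Without smooth 1, which had the highest muscle marker level, the log2 fold change was -0.39, and without the 3 libraries richest in hepatocyte markers it was -0.44.

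Another gene lies across Usp2. Usp2 (ENSMUSG00000032010) is given on the forward strand of chromosome 9, 44067021 to 44095627, and Gm49380 on the reverse strand, 44066327 to 44113500, with 200 bases of exon in common. The values of Gm49380 were 22.8, 19.5, 0 and 0 CPM in smooth 1 to 4 and 14.4, 0.207, 12.1 and 7.12 CPM in structured 1 to 4. Within each group the 2 libraries highest in Gm49380 were also the 2 highest in Usp2, at 28.6 and 27.1 CPM on smooth and at 20.4 and 22.3 CPM on structured PEEK. The part of this overlap in the Usp2 result was not tested. The library kit marks strand, but whether the counting used it is not stated in the labels, so reads of the shared exon bases may have gone to either gene. In all, 20 members overlap some other gene of the table, and the 3 that fell beside Usp2 do not.

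Usp36, a nucleolar deubiquitinase that acts on ribosome assembly factors and on MYC, was at 89.6, 85.4, 90.7 and 83.8 CPM in smooth 1 to 4. In structured 1 to 4 it was at 79.1, 69.0, 68.3 and 72.2 CPM. The groups did not overlap, and structured 1, which had the lowest neutrophil marker level of its group (24.3 FPKM against 68.2 to 77.7), was nearest to the smooth libraries. The log2 fold change was -0.28 ± 0.05 (edgeR BH-adjusted p = 0.0209), 17.4% less. Over 19 alternatives the call was lost in 9. These included the fits without smooth 3, structured 2 or structured 4, and without the 3 libraries richest in hepatocyte markers (-0.23, edgeR BH-adjusted p = 0.143). It was lost as well with no filter, with limma at every pseudocount, and with the trend in GC content and length removed. Usp36 (ENSMUSG00000033909) lies on the reverse strand of chromosome 11, 118259651 to 118290244.

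Usp22 is the deubiquitinase of the SAGA coactivator complex, where it removes ubiquitin from histone H2B. It was at 50.0, 47.9, 50.0 and 48.3 CPM in smooth 1 to 4 and at 41.1, 40.3, 45.0 and 41.5 CPM in structured 1 to 4. The smooth libraries were tightly grouped, and structured 3 was the highest of its group and still below all of them. Structured 1, with the lowest neutrophil marker level, lay within the range of the other structured libraries. The log2 fold change was -0.22 ± 0.05 (edgeR BH-adjusted p = 0.0312), 14.4% less. Over 19 alternatives the call was lost in 12. It was lost when any library other than structured 3 was left out, at log2 fold changes of -0.23 to -0.21 (edgeR BH-adjusted p up to 0.10). The other losses were without the 3 libraries richest in hepatocyte markers, with no filter, and with limma at every pseudocount. Usp22 (ENSMUSG00000042506) lies on chromosome 11 as well, 61151785 to 61175055.

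Usp10, which binds the stress granule protein G3BP1 and deubiquitinates p53, was at 134, 131, 133 and 127 CPM in smooth 1 to 4. It was at 114, 116, 123 and 119 CPM in structured 1 to 4. Structured 1, with the lowest neutrophil marker level of its group, was farthest from the smooth libraries. The groups were close and did not overlap. This was the smallest of the called changes, with a log2 fold change of -0.15 ± 0.04 (edgeR BH-adjusted p = 0.0462). Over 19 alternatives the call was lost in 15. It was lost when any library other than structured 3 was left out and with replicate number as a block (-0.15, edgeR BH-adjusted p = 0.0680, within 0.00625 to 0.394 over 19 alternatives). It was lost as well without the 3 libraries richest in hepatocyte markers and with no filter. The other losses were with DESeq2 size factors, with limma at every pseudocount, and with the trend in GC content and length removed. Usp10 (ENSMUSG00000031826) lies on chromosome 8, 119910360 to 119957560. Without structured 4 none of the 4 members kept an adjusted p under 0.05 in edgeR's test.

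**Figure D3:**
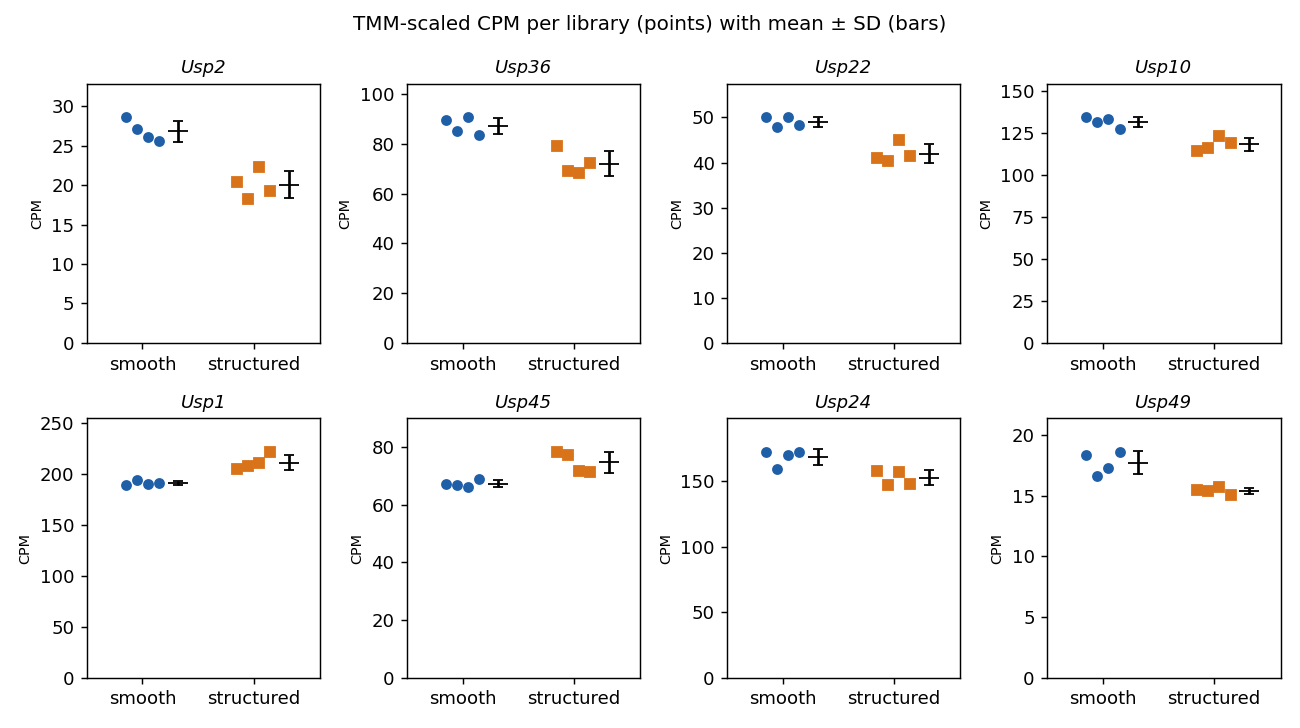
CPM of 8 Usp genes in each library, with the mean and SD of 4 libraries per surface beside the points and axes that start at 0. All 4 structured libraries lie below all 4 smooth ones for Usp2, Usp36, Usp22, Usp10, Usp24 and Usp49, and above them for Usp1 and Usp45.

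The start regions of 3 of these genes are shown because the genes fell together and RefSeq's table (GRCm38.p6) held a window for each. A window reaches from 250 bases before to 50 bases after a transcript start, and 36 of the 47 members had one. For Usp36 and Usp10 the start is that of the gene's row in the deposited table. For Usp2 it lies 17.9 kb inside the row. Capitals mark TGACG on either strand (CGTCA on the other), the half-site bound by CREB and ATF factors. The Usp2 window is on the forward strand of chromosome 9, chr9:44084670-44084969, the Usp36 window on the reverse strand, chr11:118290195-118290494, and the Usp10 window on the forward strand, chr8:119910110-119910409.
Usp2: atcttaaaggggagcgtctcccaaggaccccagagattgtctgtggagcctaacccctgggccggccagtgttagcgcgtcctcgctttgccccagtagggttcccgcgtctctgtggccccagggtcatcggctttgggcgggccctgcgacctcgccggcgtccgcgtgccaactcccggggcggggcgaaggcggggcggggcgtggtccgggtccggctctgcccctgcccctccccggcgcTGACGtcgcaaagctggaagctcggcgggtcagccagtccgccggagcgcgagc
Usp36: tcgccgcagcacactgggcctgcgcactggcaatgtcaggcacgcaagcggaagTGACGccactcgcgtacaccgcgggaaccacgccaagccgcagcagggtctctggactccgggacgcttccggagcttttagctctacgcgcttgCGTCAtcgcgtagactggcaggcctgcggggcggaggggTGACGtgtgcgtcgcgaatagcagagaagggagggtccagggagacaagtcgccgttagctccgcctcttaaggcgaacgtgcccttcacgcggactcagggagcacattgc
Usp10: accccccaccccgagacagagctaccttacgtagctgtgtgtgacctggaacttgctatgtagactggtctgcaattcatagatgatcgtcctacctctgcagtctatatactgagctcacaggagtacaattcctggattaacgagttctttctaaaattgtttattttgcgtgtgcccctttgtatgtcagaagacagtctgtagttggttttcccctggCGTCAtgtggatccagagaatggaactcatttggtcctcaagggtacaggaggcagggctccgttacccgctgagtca

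The windows differ in make-up. Those of Usp2 and Usp36 each hold 33 CpG dinucleotides and have GC contents of 71.7% and 65%, whereas that of Usp10 holds 8 and has 48.3%. The median window of a member held 29 CpG, against 7 over all windows. The motif TGACG was found once in Usp2, 3 times in Usp36 and once in Usp10. It was in a window of 14 of the 36 members and of 23% of all 27025 genes, and it was chosen after these windows had been seen. The E-box CACGTG, the site of the clock factors, can share bases with it. It was in none of the 3 windows, in those of Usp4, Usp16, Usp31 and Usp32, and in those of 8.09% of all genes. A match describes the letters alone.

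No member rose by the test, and the members with positive values at an unadjusted p under 0.05 were Usp1, Usp45 and Usp15. Usp1 was at 189, 194, 190 and 191 CPM in smooth 1 to 4 and at 205, 207, 210 and 221 CPM in structured 1 to 4. Its groups did not overlap. The log2 fold change was 0.14 ± 0.04 with an edgeR BH-adjusted p of 0.0507, and it passed with DESeq2, DESeq2 size factors, a minimum count of 40 and counts divided by 4 (0.00237 to 0.323 over 19 alternatives). Usp45, which acts on the repair nuclease subunit ERCC1, was at 66.2 to 68.8 CPM on smooth and 71.5 to 78.2 CPM on structured PEEK (0.15 ± 0.04; adjusted p = 0.0858). Usp15, a deubiquitinase of TGF-beta receptor signalling, had 0.13 ± 0.05 (adjusted p = 0.165) and groups that overlapped.

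Usp24, Usp49 and Usp48 had negative values that missed the threshold after adjustment. Usp24 was at 159 to 172 CPM on smooth and 147 to 158 CPM on structured PEEK (log2 fold change -0.14 ± 0.04; edgeR BH-adjusted p = 0.0833). Usp49, another histone H2B deubiquitinase, was at 16.6 to 18.6 CPM and 15.1 to 15.7 CPM (-0.20 ± 0.06; adjusted p = 0.113). Usp48 was at 86.3 to 91.6 CPM and 78.7 to 84.5 CPM (-0.11 ± 0.04; adjusted p = 0.162). Counted by library values, the structured group lay wholly below the smooth group in 9 members and wholly above it in 2, where 7.03% and 5.19% of all tested genes did so. The 9 were the 7 lower genes named so far with Usp5 and Usp11.

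Paralogs of the called members had values of their own. Usp8 and Usp21, whose catalytic domains resemble that of Usp2, had log2 fold changes of 0.02 ± 0.04 and -0.04 ± 0.05 beside the -0.42 of Usp2. Usp42, the nearest relative of Usp36, had -0.11 ± 0.07 and overlapping groups. Usp27x and Usp51 share SAGA adaptor proteins with Usp22. Usp27x had -0.29 ± 0.24 at 0.462 FPKM, with 1.49 to 1.61 CPM in structured 1 to 3 and 2.96 CPM in structured 4, above every smooth library, and Usp51 was too low to test. The differences between paralogs were not tested.

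Among the other related groups no member passed the test. Usp4, Usp11 and Usp15, which share a domain structure, had -0.01 ± 0.03, -0.11 ± 0.10 and 0.13 ± 0.05. The close relatives Usp25 and Usp28, the second a deubiquitinase of MYC, both had -0.03 ± 0.04. Usp20 and Usp33, which bind the von Hippel-Lindau protein, had -0.07 ± 0.06 and 0.01 ± 0.04. Usp16, an H2A deubiquitinase, had 0.05 ± 0.04 beside 0.15 for its relative Usp45, and 192 of its exon bases are shared with Cct8 on the other strand. Usp3, which acts on H2A, had -0.09 ± 0.05, Usp31 had -0.11 ± 0.06, Usp37, a cell cycle deubiquitinase, 0.04 ± 0.05, and Usp38 0.02 ± 0.05 beside -0.32 ± 0.25 for the scarce Usp35. Usp53 and Usp54 had -0.02 ± 0.10 and 0.01 ± 0.09. Usp9x, a large X-linked deubiquitinase, had 0.02 ± 0.04.

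Of the 5 most abundant members, Usp1 is described above and the other 4 had values nearer 0. Usp5 had a log2 fold change of -0.07 ± 0.03, Usp39 and Usp8 both 0.02 ± 0.04, and Usp14 0.07 ± 0.06. Usp14 shares 2169 exon bases with Thoc1 on the other strand. Usp7, which acts on MDM2 and p53, had -0.04 ± 0.04 and Usp19, an anchored protein of the endoplasmic reticulum, -0.08 ± 0.04. Usp30, which opposes Parkin at the mitochondrial surface, had -0.05 ± 0.06. Values for the other 6 members at 1 FPKM or more, Usp12, Usp32, Usp34, Usp40, Usp46 and Usp47, lay between -0.06 and 0.10. Within a group the spread was narrow. The coefficient of variation over 4 libraries had a median of 3.6% and a maximum of 10.9% among members at 1 FPKM or more. A value near 0 does not show that a gene was unaffected.

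Fold changes within the family were correlated with base composition. Over the 38 members at 1 FPKM or more, the log2 fold change fell with the GC content of the longest GENCODE M21 transcript (Spearman rho = -0.66, Pearson r = -0.60). Over the 10926 tested genes at that level rho was -0.17. With gene length the members' rho was 0.08. All these points come from the same 8 libraries, and genes are not independent replicates. Of the 19 members with GC contents from 38.2% to 46.9%, 13 had positive values (median 0.02), and of the 19 from 47.3% to 57.8%, 3 had (median -0.09). In those GC ranges 61.8% and 47.7% of all tested genes at 1 FPKM or more were positive, with medians of 0.03 and -0.01.

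The 4 members that fell have GC contents of 50.7% to 55.9%, and the 3 with positive values at an unadjusted p under 0.05 have 39.4% to 44.1%. When each library's trend with GC content and length was removed, Usp2 went to -0.38 (edgeR BH-adjusted p = 0.0198) and Usp22 stayed at -0.22 (0.0402), and both kept their calls. Usp36 went to -0.19 (0.108, within 7.7e-05 to 0.143 over 19 alternatives) and Usp10 to -0.07 (0.394), and both lost them. The median over tested members went from -0.036 to 0.008. Among the 38 members rho was then -0.54.

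**Figure D4:**
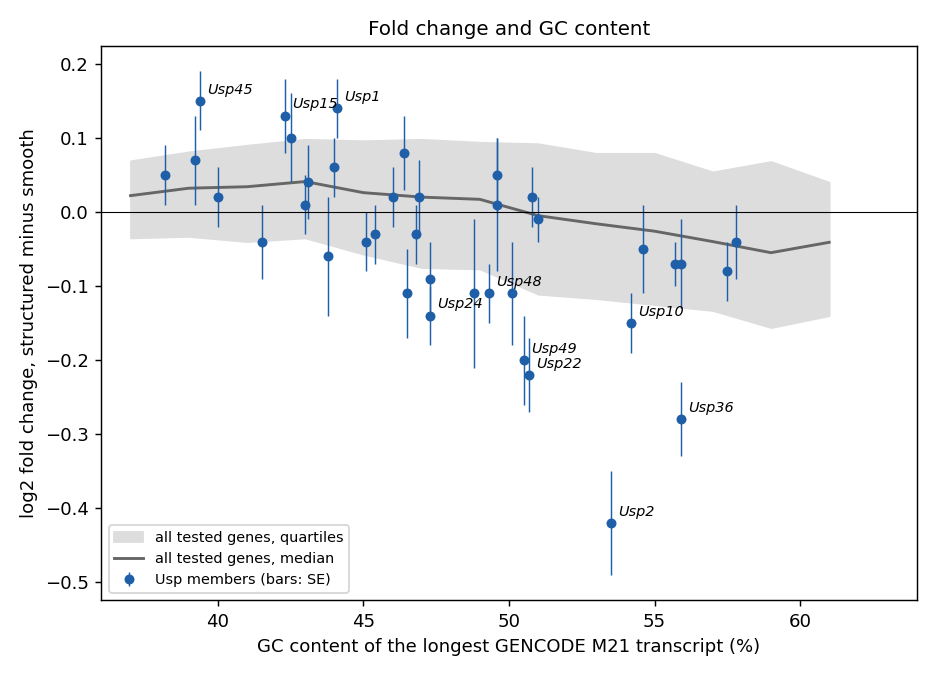
Log2 fold change (structured minus smooth, bars SE) against transcript GC content for 38 Usp genes at 1 FPKM or more. The line and band give the median and quartiles of all tested genes at that level in bins of GC content; Usp45, Usp15 and Usp1 lie above the band at low GC, and Usp22, Usp10, Usp36 and Usp2 are among those below it at higher GC.

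Genes of other deubiquitinase families were looked at beside the Usp genes. They were listed by family, and not each has known protease activity on ubiquitin. Of 37 tested members of the UCH, OTU, MJD, JAMM, MINDY and ZUFSP families none passed edgeR's test in either direction (3.75% over all tested genes). At an unadjusted p under 0.05, 2 were higher and 4 lower (8.14% and 10.6% over all tested genes). DESeq2 called 1, lower, among the 13 OTU genes with an adjusted p (7.63% lower over the 10708 genes with one). Their median log2 fold change was -0.01. The smallest p was that of Otub1, an abundant OTU protease that also blocks ubiquitin-conjugating enzymes, at 82.3 ± 1.13 and 75.1 ± 2.33 CPM (SD; -0.13 ± 0.04; edgeR BH-adjusted p = 0.0818). Tnfaip3, which encodes the NF-kB inhibitor A20, had -0.21 ± 0.07 (0.134). All 5 MINDY and ZUFSP genes had negative values, from -0.01 to -0.25. Uchl5, Josd1, Eif3h, Mindy1 and Otud6b had 0.02, -0.01, 0.01, -0.07 and 0.12. Of Cyld, Uspl1 and Pan2, which share the protease fold without a Usp number, none passed, with values of 0.06, 0.08 and -0.08.

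Partner proteins were not called by edgeR, 0 of 20 (3.75% over all tested genes). At an unadjusted p under 0.05, 4 were higher and 6 lower, where the shares over all tested genes were 8.14% and 10.6%. The 6 include Usp6nl (-0.13 ± 0.05) and Adrm1 (-0.10 ± 0.04), which were on the list but are not established partners of a Usp member. DESeq2 called 3 of the 20, 2 higher and 1 lower (12.5% over the 10708 genes with an adjusted p), and the median was -0.01. Wdr48, the activator of Usp1, Usp12 and Usp46, was at 71.9, 69.9, 75.8 and 72.4 CPM in smooth 1 to 4 and at 78.1, 87.0, 81.1 and 79.6 CPM in structured 1 to 4. Its groups did not overlap, and the log2 fold change was 0.17 ± 0.05 (edgeR BH-adjusted p = 0.0690). Its 3 proteases had 0.14, 0.05 ± 0.05 and 0.10 ± 0.06. Of the SAGA adaptors of Usp22, Atxn7l3 had 0.01 ± 0.04 and Eny2 0.16 ± 0.06 (0.144), while Atxn7, the ataxin subunit of that module, had -0.18 ± 0.07 (0.188). G3bp1, the partner of Usp10, had 0.09 ± 0.03 (0.124), Hgs, an endosomal partner in the pathway of Usp8, -0.16 ± 0.04 (0.0690), and Psmd2, the proteasome subunit that holds Usp14, 0.06 ± 0.03.

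Genes that encode ubiquitin and the E1 enzymes, which activate ubiquitin and its relatives, were taken from a list of which 10 genes are given here. By edgeR none of the 10 passed the test in either direction (3.75% over all tested genes). At an unadjusted p under 0.05, 3 were higher and 0 lower (8.14% and 10.6% over all tested genes). DESeq2 called 2 of the 10, both higher (4.84% higher over the 10708 genes with an adjusted p). Ubb, a polyubiquitin gene, was at 586 to 680 CPM on smooth and 633 to 679 CPM on structured PEEK, with a log2 fold change of 0.04 ± 0.05. Rps27a, which encodes ubiquitin fused to a ribosomal protein, had 0.17 ± 0.05 (BH-adjusted p = 0.119). The main E1 gene Uba1 had -0.07 ± 0.04, and Uba2, of the SUMO E1, had 0.12 ± 0.04 (0.0919).

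Since Usp2 is a clock output gene, 19 genes of the circadian clock and its output were listed. Of 18 tested, 1 fell and none rose by edgeR (2.75% and 1.01% over all tested genes). At an unadjusted p under 0.05, 7 were lower and 0 higher (background 10.6% and 8.14%). DESeq2 gave an adjusted p to 13 of the listed genes and called 3 lower (7.63% lower over the 10708 genes with an adjusted p). The median log2 fold change was -0.15, with 14 negative values. Bhlhe40, a repressor in the clock loop that also responds to many stimuli in macrophages, was at 16.3, 17.6, 21.8 and 18.7 CPM in smooth 1 to 4. It fell to 10.3, 14.1, 12 and 10.5 CPM in structured 1 to 4, by -0.66 ± 0.12 on the log2 scale (BH-adjusted p = 0.0166, edgeR). Its call was lost without smooth 3, structured 4 or the 3 libraries richest in hepatocyte markers (adjusted p = 0.0728 at -0.66, within 5.9e-06 to 0.0728 over 19 alternatives). It was lost as well with no filter (edgeR BH-adjusted p = 0.0501). The structured group lay wholly below the smooth one in 5 of the genes (7.03% over all tested genes), Bhlhe40, Arntl, Per1, Cry2 and Tef. The latter 4 had -0.07, -0.17, -0.36 and -0.24, with adjusted p-values of 0.427, 0.119, 0.0888 and 0.0789. The core genes Clock and Cry1 had 0.08 and -0.01. Dbp, a classical output gene, had -0.02 ± 0.15. Culture times and hours of harvest are not given in the labels.

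**Figure D5:**
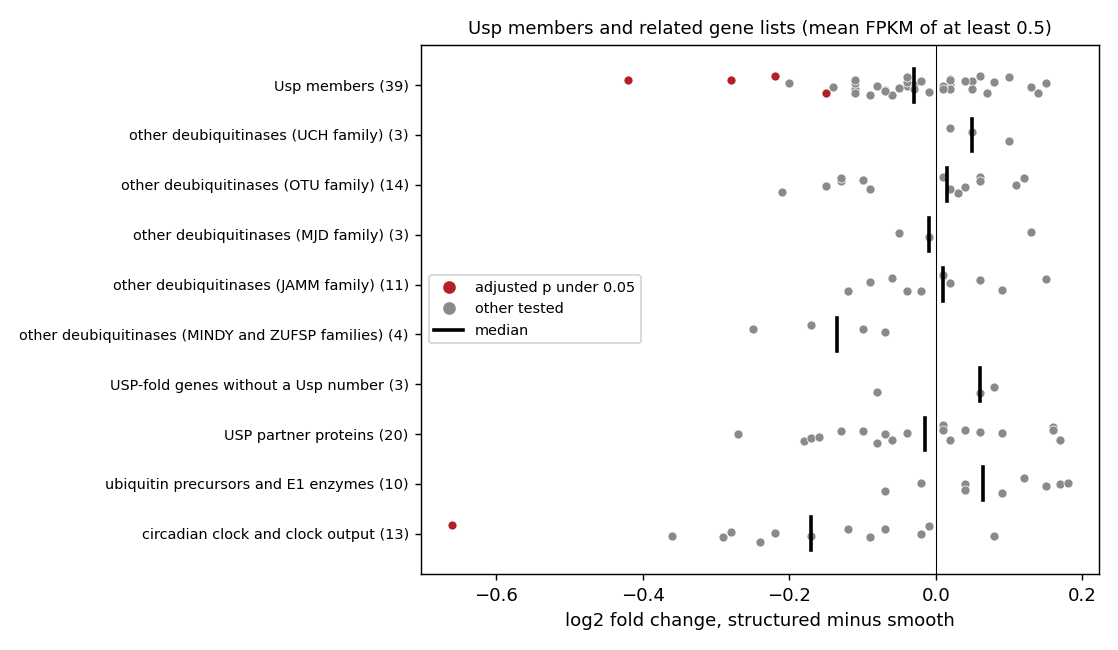
Log2 fold change, structured minus smooth, of tested genes with a mean of at least 0.5 FPKM in the Usp family and in 9 related lists (number of genes in brackets; bars mark medians). Called genes are Usp2, Usp36, Usp22 and Usp10 in the family and Bhlhe40, at -0.66, among the clock genes.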

How the data were processed

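RNA of 8 libraries, 4 per surface, was sequenced as read pairs of 150 bases after selection on oligo(dT) beads, per the labels' protocols. Per the submitters' processing notes, cutadapt 1.9 and HISAT2 2.2.1 were used. What counter, strand setting and build went with them is not given in the sources used here. Estimated counts were deposited as whole numbers, and 32.1% of the values from 1 to 40 are multiples of 4, against 25.3% in a range of much higher counts. The deposited FPKM values are scaled by the authors to gene length and depth, per the file headers. Coordinates of 40 of 47 members equal those of GENCODE M21 (GRCm38).

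Counts were tested with edgeR 4.0.16 under R 4.3.3 on the whole table: TMM scaling after filterByExpr (minimum count 10), then the quasi-likelihood test, two-sided, of structured minus smooth, Benjamini-Hochberg adjusted over 16006 genes at 0.05. The SE is the log2 fold change divided by the root of the F statistic. CPM are counts scaled by the TMM library size. GC content was known with length for 98.2% of tested genes. The steps were also run on simulated counts, all multiples of 4 with a single fixed spread between libraries. The deposited counts are not built in that way, so the run does not measure error rates in these data. Alternatives were other filters, DESeq2 1.42.0 and its size factors, limma 3.58.1 on log2(FPKM + 0.5), with 0.1 and 1 as well, counts divided by 4, removal of the GC and length trend, a replicate block and each library left out. Leaving out smooth 1, structured 3 and structured 4 together was chosen after the data had been seen. Members, lists and tests were chosen with earlier results of these data known. Named were all called members, those at an unadjusted p under 0.05, the 5 most abundant, the 5 highest and 5 lowest fold changes, paralog groups, and up to 4 called genes of each list or its most abundant gene, 45 genes in all; other list genes were named after their values were seen. Some genes of the list of ubiquitin precursors and E1 enzymes are not reported here and are not in its counts.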

Additional observations from a re-analysis of the deposited data

Results flagged for a closer look

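Among 80 groups of 4 libraries, for the named genes at 1 FPKM or more, 4 held a library set apart from the other 3 by more than Dixon's criterion, and chance gives about 1 in 20. Usp31 was at 68.6 CPM in smooth 3, above the 60.0 to 61.1 CPM of the other smooth libraries. Uchl5 was at 120 CPM and Otud6b at 125 CPM in structured 2. Josd1 was at 78.8 CPM in smooth 4.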

How the results depend on the processing

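Over 19 alternatives Usp2 kept a negative log2 fold change of -0.47 to -0.34 and lost its call once, without structured 4; with 1 library left out it ran from -0.47 to -0.38. The 601 calls over all genes became 189 with no filter, 1335 with DESeq2, 191, 242 and 187 with limma on log2 FPKM and pseudocounts of 0.5, 0.1 and 1, 272 after removal of the trend with GC and length, 186 without smooth 1, structured 3 and structured 4, and 88 to 597 with 1 library left out. In the same order of settings the 4 calls of Usp members became 1, 8, 1, 1, 1, 2, 1 and 0 to 4. The family's median log2 fold change was 0.008 after that removal and -0.056 to -0.027 with 1 library left out. Lower calls made up 440 of 601 in the main test, 817 of 1335 with DESeq2 and 155 of 272 with the trend removed. The single call of the clock list became 0 with no filter, 3 with DESeq2, 0 without the 3 libraries and 0 to 1 with 1 library left out. Partner proteins had 3 calls with DESeq2, 1 with the trend removed and 0 to 1 with 1 library left out, the OTU family 1 and the ubiquitin and E1 genes 2 with DESeq2. Fewer samples enter the fits that leave libraries out; the cause of the other shifts was not tested.

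Whether the replicate numbers pair the libraries is not given in the labels. For numbers 1 to 4, same-numbered libraries had correlations of deviations from the group mean of -0.062, 0.076, -0.004 and -0.159. The highest values of these smooth libraries with a structured library of another number were 0.197, 0.003, 0.015 and 0.149. These values do not settle the question. With the replicate block there were 499 calls, 3 of them in Usp members, and Usp2 stayed at -0.42 (edgeR BH-adjusted p = 0.0266). Of 44 other named genes, 12 changed sign under at least 1 alternative without a call. With the trend removed Usp39 was at -0.03, Usp4 0.03, Usp20 0.03, Usp53 0.02, Usp21 0.04, Uchl5 -0.03 and Eif3h -0.05. Without the 3 libraries Usp39 was at -0.05, Usp14 -0.01, Usp53 0.05, Usp54 -0.08, Usp38 -0.06 and Eif3h -0.02. Usp50 was at -0.06 with limma and a pseudocount of 0.1 and at -0.37 with the block. With 1 library left out Usp39 ran from -0.00 to 0.05, Uchl5 from -0.00 to 0.05, Eif3h from -0.02 to 0.03, Usp9x from -0.00 to 0.06, Usp54 from -0.05 to 0.07, Usp50 from -0.37 to 0.78, Usp4 from -0.03 to 0.00, Usp53 from -0.07 to 0.04 and Usp38 from -0.01 to 0.05. Depth limits the members under 1 FPKM, whose SE reached 1.28 (Usp50).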
